A study of Mus musculus with 21 samples.

Results

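The collagen genes of the mouse, a family of extracellular matrix genes, were followed here through the H3K4me1 regions that lie near them in embryonic stem cells. A region was taken where the deposited table names a collagen gene as its nearest gene and puts the region within 50 kb of that gene's start site. This gave 281 regions at 42 genes, of 186824 regions with levels in the table. Of these, 64 regions lie at 11 fibrillar collagen genes and 217 at 31 genes of other collagen types. The rule uses a gene's name and a distance, and no measured value. Each region takes the name of the nearest gene, and whether it acts on that gene is not known.

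Collagens are trimeric proteins whose chains wind into a triple helix built on a repeat of glycine and proline-rich residues. Fibrillar collagens assemble into the cross-banded fibrils of skin, bone and tendon, fibril-associated collagens (FACIT) decorate those fibrils, and type IV collagen forms the network of basement membranes. The early mouse embryo makes basement membrane collagen, while most fibrillar collagens belong to mesenchymal cells that arise later. H3K4me1 marks enhancers and the flanks of promoters, and MLL3 and MLL4 are the enzymes that place much of it at enhancers.

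CUT&RUN, in which an antibody guides a micrococcal nuclease fused to protein A to chromatin, was used to map H3K4me1 in cells of 4 genotypes. Formative cells, collected 63 h after LIF2i was withdrawn, were set against naive cells held in LIF2i. The genotypes were DKO (MLL3KO_MLL4KO, without either enzyme), dCD (MLL3CD_MLL4CD, CD alleles of both enzymes in R1 cells), a floxed line (MLL3KO_MLL4fl, without MLL3 and with a floxed MLL4 allele) and wild type (R1). The DKO was set against the floxed line, which also lacks MLL3, and the dCD against wild type, with which it shares the R1 label. The labels give no line for the DKO and the floxed line and do not say whether any line is a single clone. Each of the 8 groups had 2 libraries, but the table holds 1 pooled value per group, so the spread between replicates is unknown and differences are described by size. The only test is the FDR that the authors' deposited table gives for formative over naive wild-type cells, and "gained" and "lost" are used only for regions past an FDR of 0.05 in it.

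Levels were converted to normalized reads per region. The median collagen region held 36.9 normalized reads in formative DKO cells, 34.2 in formative dCD cells, 39.1 in formative floxed-line cells and 41.7 in formative wild-type cells. Over all regions the medians were lower, at 30.6, 29.6, 35.0 and 37.7 reads in the same order of groups. Markers of the labelled states moved in wild type: 3 of 6 formative marker loci were higher by at least 1.5-fold and 0 lower in formative cells, and 0 of 8 naive marker loci were higher and 5 lower, beside 12.8% higher and 15.1% lower of all loci. In DKO cells none of these loci reached 1.5-fold in either direction, where 1.57% of all loci were higher and 1.03% lower. In dCD cells 1 formative marker locus, Fgf5, was higher, and 2 naive marker loci, Zfp42 and Klf4, were lower, beside 2.6% and 1.93%. In RNA from samples outside this series, every naive marker was lower in formative than in naive DKO cells. These log2 folds in the authors' deposited table ran from −2.76 at Tfcp2l1 to −1.14 at Zfp42. By the same folds Fgf5 (5.75), Pou3f1 (5.19) and Sox3 (2.89) were higher. A change in the number of cells that carry a mark and a change in the mark per cell cannot be told apart in such pooled material.

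The sequences below are shown because the mutant differences near collagen genes went with CpG density. The first group is the 250 bases just upstream of the start site of genes whose start carried the mark, read on the gene's strand, and Col3a1, the last of them, has no CpG there. They come from RefSeq on GRCm38.p6, the assembly also known as mm10, and capitals mark CpG. Col11a1 and Col27a1 code for fibrillar chains, Col19a1 for a FACIT, and Col1a2 and Col3a1 for the chains of types I and III collagen. The positions are chr3:114030290-114030539 on the plus strand for Col11a1, chr1:24587438-24587687 on the minus strand for Col19a1 and chr4:63215162-63215411 on the plus strand for Col27a1. They are chr6:4505368-4505617 for Col1a2 and chr1:45311288-45311537 for Col3a1, both on the plus strand.
Col11a1 upstream of the start: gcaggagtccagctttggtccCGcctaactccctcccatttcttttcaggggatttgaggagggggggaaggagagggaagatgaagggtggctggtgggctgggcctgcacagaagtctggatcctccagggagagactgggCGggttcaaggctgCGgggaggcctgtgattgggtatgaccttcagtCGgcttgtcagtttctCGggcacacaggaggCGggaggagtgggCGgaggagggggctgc
Col19a1 upstream of the start: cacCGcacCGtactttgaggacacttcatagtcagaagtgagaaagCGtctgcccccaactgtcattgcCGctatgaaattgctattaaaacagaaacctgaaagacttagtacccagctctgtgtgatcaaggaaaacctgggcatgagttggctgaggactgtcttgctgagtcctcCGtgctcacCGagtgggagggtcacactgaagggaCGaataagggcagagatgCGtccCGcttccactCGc
Col27a1 upstream of the start: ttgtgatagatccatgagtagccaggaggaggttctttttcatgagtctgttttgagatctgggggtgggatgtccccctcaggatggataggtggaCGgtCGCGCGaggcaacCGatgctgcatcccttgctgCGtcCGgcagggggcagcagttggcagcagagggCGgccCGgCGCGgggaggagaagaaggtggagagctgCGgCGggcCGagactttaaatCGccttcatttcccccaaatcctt
Col1a2 upstream of the start: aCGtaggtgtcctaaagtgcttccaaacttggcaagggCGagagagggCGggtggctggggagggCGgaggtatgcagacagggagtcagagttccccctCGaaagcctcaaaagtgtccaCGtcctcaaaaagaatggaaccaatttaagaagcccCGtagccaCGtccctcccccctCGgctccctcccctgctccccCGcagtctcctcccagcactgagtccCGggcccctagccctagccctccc
Col3a1 upstream of the start: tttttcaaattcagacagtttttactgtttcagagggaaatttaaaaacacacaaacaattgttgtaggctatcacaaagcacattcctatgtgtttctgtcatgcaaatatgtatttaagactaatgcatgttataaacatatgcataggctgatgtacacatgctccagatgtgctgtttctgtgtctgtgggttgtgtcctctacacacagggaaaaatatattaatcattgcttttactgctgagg

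The second group is the central 250 bases of 3 regions that gained H3K4me1 in wild type, shown on the plus strand of the same assembly with CpG again in capitals. They lie inside Col11a1 at chr3:114034157-114034406, inside Col19a1 at chr1:24564411-24564660, and about 1 kb upstream of Col1a2 at chr6:4504383-4504632. The first holds no CpG, the second 1 and the third 5, against 7, 10 and 11 in the windows upstream of the same 3 starts.
Col11a1 gained region: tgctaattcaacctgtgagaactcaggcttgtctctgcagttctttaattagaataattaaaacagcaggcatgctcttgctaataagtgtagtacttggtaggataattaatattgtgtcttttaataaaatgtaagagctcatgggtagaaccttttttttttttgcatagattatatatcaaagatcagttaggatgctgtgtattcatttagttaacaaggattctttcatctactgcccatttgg
Col19a1 gained region: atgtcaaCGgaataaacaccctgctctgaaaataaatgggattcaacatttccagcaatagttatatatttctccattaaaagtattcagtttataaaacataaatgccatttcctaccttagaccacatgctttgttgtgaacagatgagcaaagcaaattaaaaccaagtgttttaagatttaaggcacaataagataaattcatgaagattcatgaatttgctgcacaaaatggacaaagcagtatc
Col1a2 gained region: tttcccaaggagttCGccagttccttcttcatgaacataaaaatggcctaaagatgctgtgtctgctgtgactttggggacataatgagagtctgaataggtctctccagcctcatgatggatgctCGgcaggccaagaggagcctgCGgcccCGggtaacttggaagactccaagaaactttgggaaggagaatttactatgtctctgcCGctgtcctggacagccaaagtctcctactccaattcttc

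In wild-type cells the collagen regions that gained H3K4me1 outnumbered those that lost it, with much of the excess at 1 fibrillar gene, Col1a2. By the authors' deposited table, 30 of the 281 regions gained the mark in formative cells and 18 lost it, beside 9.82% gained and 10.5% lost of all regions. Among fibrillar collagens 13 of 64 regions gained and 3 lost, and among the other types 17 of 217 gained and 15 lost. Of the 13 fibrillar gains 6 lay at Col1a2, and the 3 losses lay at Col1a1. Gains also outnumbered losses in the short-chain collagens (5 and 0 of 15 regions) and the FACIT collagens (6 and 2 of 58). The median difference of formative minus naive log2 level was 0.37 over fibrillar regions and 0.10 over the others, against −0.03 over all regions. Of the gained regions, 2 lay within 1 kb of a start site, 10 at 1 to 10 kb and 18 at 10 to 50 kb.

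Counted by size alone, 31 collagen regions were higher and 26 lower in formative wild-type cells by at least 2-fold, beside 11.1% and 11.4% of all regions. Most of the higher ones held few reads. Among the 206 collagen regions with at least 32 normalized reads in one of the states, 13 were higher and 20 lower. The share of higher regions thus fell to 6.31% where low regions were left out. The 11.1% and 11.4% were taken over regions of any read count and are no background for these filtered counts. The floxed line had 36 higher and 13 lower collagen regions (background 9.33% and 10.6%). The mutants had few: 2 higher and 5 lower in DKO cells (1.2% and 1.25%), and 5 higher and 2 lower in dCD cells (1.37% and 2.47%). Over the 281 regions the floxed-line and wild-type transitions, which share no library, correlated at r = 0.80, and over the 64 fibrillar regions at 0.91. Over all regions r was 0.78.

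**Figure D1:**
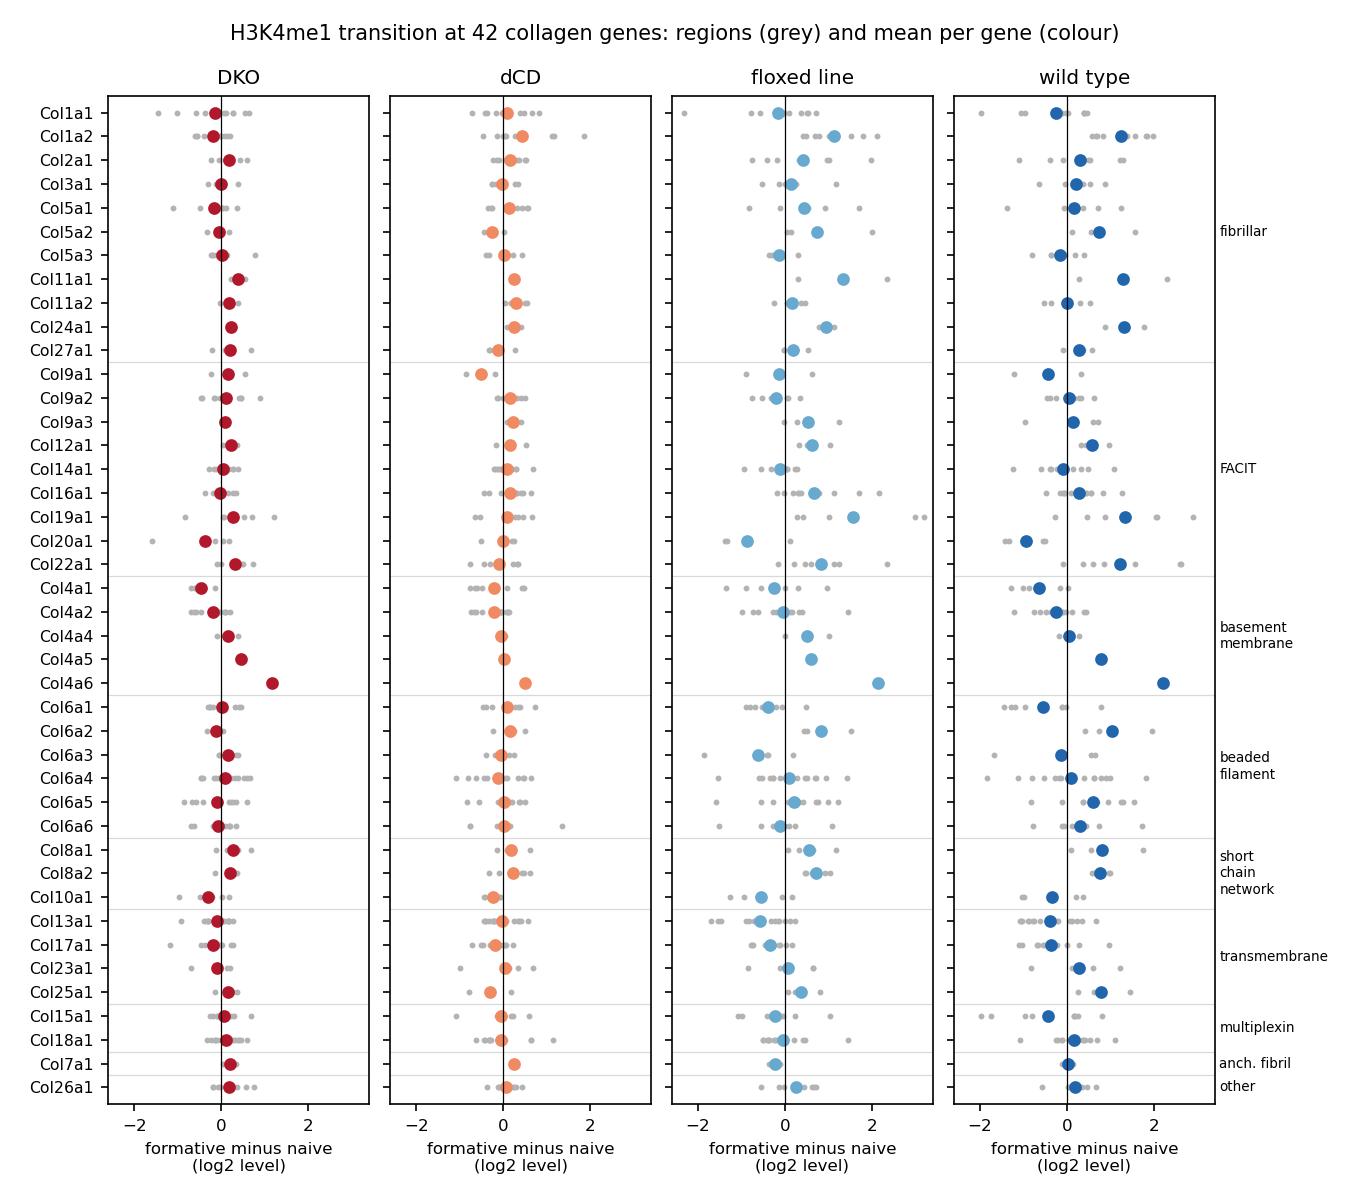
Formative minus naive log2 H3K4me1 level of each collagen region (grey) and its mean per gene (in the colour of the panel). Genes run down the page grouped by class, with 1 panel each for DKO, dCD, the floxed line and wild type. Gene means spread widely in the floxed line and wild type, from −0.95 at Col20a1 to 2.20 at Col4a6 in wild type, and over a narrower range in DKO cells, where Col4a6 stands apart at 1.17, and in dCD cells, where Col4a6 reaches 0.50.

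Col1a2, which codes for the second chain of type I collagen, had the most gains of any collagen gene. All 10 of its regions were higher in formative than in naive cells in both the floxed line and wild type, and 6 of them gained the mark in wild type. Its regions summed to 401 normalized reads in formative and 439 in naive DKO cells, and to 440 and 382 in dCD cells. In the floxed line they summed to 629 formative and 329 naive reads, and in wild type to 721 and 367. The formative sums of both mutants thus lay below those of their controls, while the naive sums lay above them.

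The gained regions of Col1a2 formed a cluster just upstream of the start and a far upstream group. The region centred 1.1 kb upstream (chr6:4504026-4504990), whose centre is printed above, held 27.2 formative and 31.4 naive reads in DKO cells and 42.9 and 18.9 in dCD cells. It held 36.8 and 16.01 reads in the floxed line and 44.5 and 12.5 in wild type, a log2 fold of 1.89 with an FDR of 0.00183 in the authors' deposited table. At 16.5 kb upstream (chr6:4487385-4490863) the counts were 57.3 and 51.6 in DKO cells, 37.3 and 41.5 in dCD cells, 103 and 27.9 in the floxed line, and 105 and 38.7 in wild type (log2 fold 1.35, FDR 0.000272 in the authors' deposited table). The near region was thus higher in formative than in naive dCD cells, as in both controls, and the far one was not. The region over the start itself (chr6:4505082-4508730) differed less: it held 109 formative and 94.8 naive reads in DKO cells, 116 and 90.0 in dCD cells, 95.0 and 67.2 in the floxed line, and 106 and 65.4 in wild type. The authors' deposited table gives it an FDR of 0.101. The locus mean, the formative minus naive log2 difference averaged over a gene's regions, was −0.19 in DKO and 0.43 in dCD cells, against 1.12 in the floxed line and 1.25 in wild type.

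**Figure D2:**
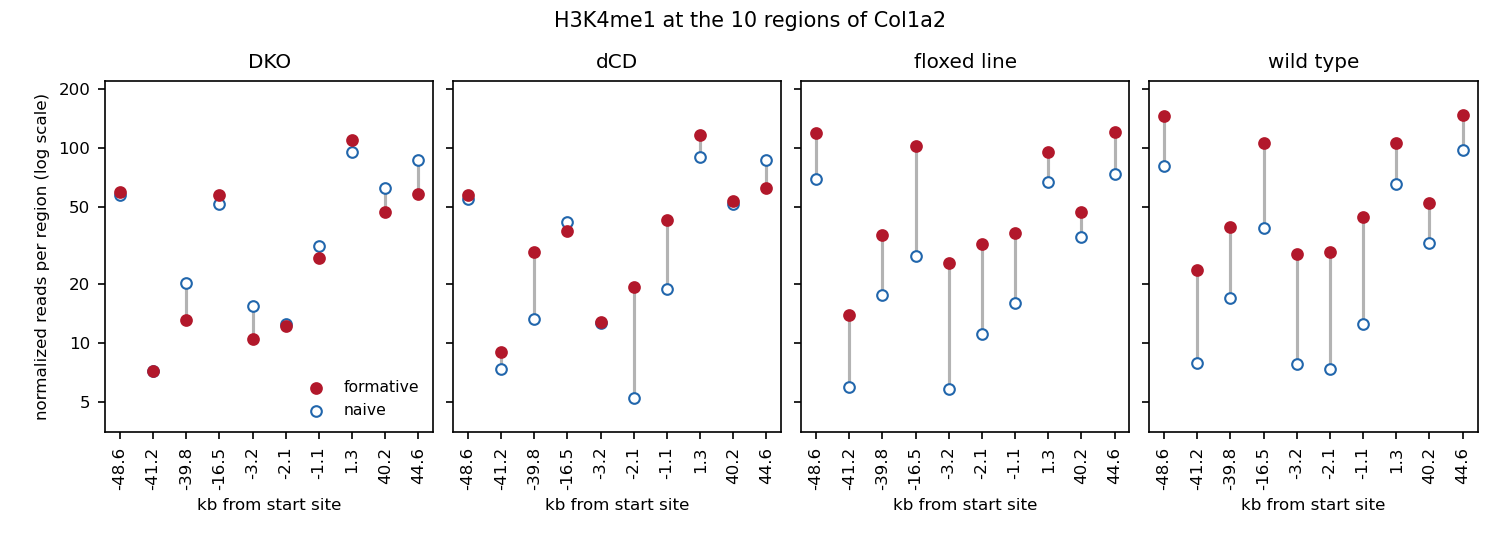
Normalized H3K4me1 reads (log axis) of the 10 Col1a2 regions by distance of their centre from the start site in kb, with formative cells filled and naive cells open, in DKO, dCD, floxed-line and wild-type cells. In the floxed line and wild type every filled point lies above its open one, while in DKO cells this holds for 3 of 10 regions and in dCD cells for 8.

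Col1a1, which codes for the partner chain of type I collagen on another chromosome, had losses and no gain. None of its 10 regions gained the mark in wild type and 3 lost it, and its mean was −0.15 in DKO, 0.08 in dCD, −0.15 in floxed-line and −0.25 in wild-type cells. The strongest of these losses lay 34.9 kb upstream, with 21.0 formative and 60.0 naive reads in DKO cells, 31.5 and 52.5 in dCD cells, 20.9 and 111 in the floxed line, and 18.4 and 77.9 in wild type (log2 fold −2.11, FDR 2.06e-05 in the authors' deposited table). The formative count was the lower one in every genotype. The region over the Col1a1 start held 268 formative and 203 naive reads in wild type.

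Other fibrillar genes with gains were Col11a1, Col24a1, Col2a1, Col5a1 and Col3a1. Col11a1, a minor chain of cartilage fibrils, had a mean of 0.40 in DKO, 0.25 in dCD, 1.33 in floxed-line and 1.29 in wild-type cells over 2 regions. Its gained region, 3.7 kb into the gene (chr3:114033442-114035122), held 14.3 formative and 9.52 naive reads in DKO cells, 14.1 and 11.7 in dCD cells, 47.7 and 8.88 in the floxed line, and 44.6 and 8.61 in wild type (FDR 0.000149 in the authors' deposited table). Naive reads there were alike in the 4 genotypes, and only the controls were above 40 reads in the formative state. At the Col11a1 start the order was the opposite, with 166 formative reads in DKO and 151 in dCD cells against 114 in the floxed line and 98.4 in wild type.

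Col24a1, a fibrillar collagen of developing bone and cornea, gained at both of its regions, with locus means of 0.22 in DKO, 0.25 in dCD, 0.95 in floxed-line and 1.31 in wild-type cells. Its start-site region held 166 formative and 145 naive reads in DKO cells, 164 and 123 in dCD cells, 124 and 72.2 in the floxed line, and 109 and 58.7 in wild type (FDR 0.0228 in the authors' deposited table). Both mutants exceeded their controls in both states at this start. Col2a1, the chain of cartilage type II collagen, gained at 2 of 8 regions. Its region 21.8 kb upstream held 105 formative and 89.0 naive reads in DKO cells, 96.3 and 74.2 in dCD cells, 222 and 53.5 in the floxed line, and 150 and 59.1 in wild type (FDR 1.71e-06 in the authors' deposited table). At Col5a1, a chain of the type V collagen that nucleates type I fibrils, the region 27.7 kb upstream held 55.7 and 42.9 reads in DKO, 56.0 and 37.7 in dCD, 105 and 30.7 in floxed-line, and 110 and 45.3 in wild-type cells (FDR 0.00072 in the authors' deposited table). At these 2 regions the formative reads of each mutant were lower and the naive reads close to or above those of its control, except that naive dCD cells lay below wild type at Col5a1.

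Col3a1, the type III chain of skin and vessel walls, differed in another way, in both states. All 5 of its regions were lower in DKO than in floxed-line cells and lower in dCD than in wild-type cells, in the naive and in the formative state. Its largest region, 46.8 kb past the start, held 58.2 formative and 60.1 naive reads in DKO cells, 69.1 and 84.8 in dCD cells, 210 and 231 in the floxed line, and 271 and 186 in wild type. This region gained in wild type by a small margin (log2 fold 0.50, FDR 0.0488 in the authors' deposited table). The start-site region held 10.7 and 11.6 reads in DKO cells, 16.2 and 12.8 in dCD cells, 32.3 and 14.2 in the floxed line, and 33.1 and 18.0 in wild type. The locus means were −0.97 for formative and −0.81 for naive DKO minus floxed-line cells, and −1.22 and −0.99 for dCD minus wild type. The floxed line itself lay below wild type here, by means of −0.50 in formative and −0.44 in naive cells. Repeats cover 64.2% of the largest region and 47.1% and 50.9% of the 2 farthest upstream.

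The remaining fibrillar genes had no region past the FDR. The means of Col5a2, another type V chain, were −0.05 in DKO, −0.25 in dCD, 0.72 in floxed-line and 0.74 in wild-type cells over 3 regions. Those of Col5a3, also a type V chain, were 0.03, 0.03, −0.14 and −0.16 in the same order. For Col11a2, the other type XI chain, they were 0.18, 0.29, 0.16 and −0.01, and for Col27a1, a fibrillar collagen of cartilage, 0.20, −0.12, 0.19 and 0.28. Only Col5a2 among these 4 stood past 1.5-fold in either control, and it did so in both.

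Among fibril-associated collagens 6 of 58 regions gained and 2 lost in wild type, and the gains lay at Col19a1, Col22a1, Col12a1 and Col9a3. Col19a1 is a FACIT known from muscle and neural tissue. Its region 22.9 kb into the gene (chr1:24563735-24565338) showed the largest gain by fold of all 281 collagen regions, a log2 fold of 3.22 with an FDR of 6.91e-07 in the authors' deposited table. It held 16.9 formative and 7.002 naive reads in DKO cells, 15.5 and 9.59 in dCD cells, 54.5 and 5.49 in the floxed line, and 49.8 and 6.28 in wild type. Formative cells were thus higher in every genotype, and the formative reads of the mutants stayed below 20. Col22a1, a FACIT of tissue junctions, gained at 2 upstream regions. The one 28.7 kb upstream held 6.25 and 6.29 reads in DKO cells, 10.4 and 11.3 in dCD cells, 18.3 and 7.58 in the floxed line, and 30.5 and 4.72 in wild type (FDR 0.000409 in the authors' deposited table). Here each mutant held nearly equal counts in both states, and all counts were low. Col20a1 ran the other way, with means of −0.37 in DKO, −0.01 in dCD, −0.87 in floxed-line and −0.95 in wild-type cells.

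Of 22 regions of basement membrane collagen, type IV, 1 gained and 3 lost, and the 13.6% lost was near the 10.5% of all regions. Col4a1 and Col4a2, the ubiquitous type IV chains, are transcribed in opposite directions from starts 21 bp apart, which 1 region covers (chr8:11306153-11318943). That region held 447 formative and 428 naive reads in DKO cells and 409 and 446 in wild type. The regions named for Col4a1 all lie upstream of its start, in introns on the Col4a2 side. Those named for Col4a2, the shared region apart, likewise lie upstream of its start, in introns on the Col4a1 side. The assignment to either gene rests only on the nearest start. The Col4a1 mean was −0.47 in DKO, −0.21 in dCD, −0.25 in floxed-line and −0.65 in wild-type cells, on a chromosome whose own median was −0.19 in wild type. The region 28.6 kb upstream of Col4a1 held 139 and 187 reads in DKO, 117 and 192 in dCD, 136 and 206 in floxed-line, and 131 and 278 in wild-type cells. This region was lost in wild type (FDR 2.23e-05 in the authors' deposited table). It was lower in the formative state in all 4 genotypes. Col4a6, an X-linked chain, was the single gain: its 1 region held 7.59 and 3.17 reads in DKO, 8.92 and 6.21 in dCD, 28.8 and 6.29 in floxed-line, and 34.4 and 7.20 in wild-type cells (FDR 0.000825 in the authors' deposited table). Chromosome X as a whole had a median of 0.33 in the wild-type transition. Col4a6 was also the only collagen locus past 1.5-fold in the DKO transition, at 1.17, from counts under 8 reads.

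In the beaded-filament collagens, the microfibril-forming type VI chains, 3 of 48 regions gained and 5 lost. The mean of Col6a2 was −0.11 in DKO, 0.17 in dCD, 0.82 in floxed-line and 1.03 in wild-type cells. Its neighbour Col6a1 had 0.03, 0.10, −0.39 and −0.54, so that the pair differed in direction in both controls. A lost region inside Col6a1, 2.4 kb past its start, held 51.1 and 49.1 reads in DKO, 29.6 and 41.0 in dCD, 18.4 and 32.8 in floxed-line, and 17.7 and 44.7 in wild-type cells. In the short-chain collagens, which form hexagonal networks, 5 of 15 regions gained and 0 lost, 4 of them at Col8a2, a component of the membrane beneath the corneal endothelium. All 6 Col8a2 regions were higher in formative cells in both controls, with means of 0.20 in DKO, 0.23 in dCD, 0.71 in floxed-line and 0.75 in wild-type cells. In the transmembrane collagens 0 of 38 regions gained and 2 lost. Both losses lay at Col13a1, a muscle and adhesion-site collagen, which had means of −0.10, −0.03, −0.59 and −0.40 in the same order over 19 regions. Among the multiplexins, the collagens XV and XVIII of basement membrane zones, 1 of 25 gained and 3 lost. Of the 2 Col7a1 regions, at the anchoring fibril gene of skin, none passed the FDR, and Col26a1 gained at 1 of 9.

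Taken by gene, 13 of 42 collagen loci were higher by at least 1.5-fold and 2 lower in formative wild-type cells, beside 12.8% and 15.1% of all loci. In the floxed line 12 were higher and 3 lower (9.9% and 15.5%). In DKO cells 1 was higher and 0 lower (1.57% and 1.03%), and in dCD cells 0 and 0 (2.6% and 1.93%). Means over 1 to 3 regions, as at Col11a1, Col24a1, Col4a5, Col4a6, Col5a2, Col6a2 and Col25a1, rest on few values.

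The 30 regions gained in wild type were then read in the other genotypes, which share no library with wild type. In the floxed line 17 of them were at least 2-fold higher in formative cells, beside 51.1% of all gained regions, and in DKO and dCD cells 2 each, beside 3.81% and 5.01%. Their median difference was 0.14 in DKO, 0.27 in dCD and 1.13 in floxed-line cells. The median reads of these regions were 37.4 formative and 34.5 naive in DKO cells, 36.2 and 35.0 in dCD cells, 65.5 and 28.3 in the floxed line, and 57.9 and 26.6 in wild type. Mutant cells thus lay between the naive and the formative level of the controls in both states. The wild-type levels were set apart by the choice of these regions, so the place of dCD cells between them is partly given by that choice. The floxed line was not used in the choice. In the formative state 26 of the 30 were lower in DKO than in floxed-line cells (median −0.62), 10 of them by at least 2-fold, beside 54.7% of all gained regions and a median of −1.08. In the naive state 22 of the 30 were higher in DKO than in floxed-line cells (median 0.29), where the median over all gained regions was −0.10. Of the 18 lost regions all were lower in the formative floxed line (median −0.86, against −1.01 over all lost regions). At least 2-fold lower were 5 of them (50.4% of all lost regions). In DKO and dCD cells 1 each was (1.89% and 5.92%).

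Fibroblasts, often used as feeder cells for stem cells, make fibrillar collagens, and marker loci of fibroblasts and of endoderm were read beside these results. In wild type 4 of 7 fibroblast marker loci (Fap, Prrx1, Dcn and Twist1) were at least 1.5-fold higher in formative cells and 0 lower, and 2 of 6 endoderm marker loci (Sox17 and Dab2) were higher and 0 lower, beside 12.8% higher and 15.1% lower of all loci. Thy1 (−0.01), Postn (−0.12) and Pdgfrb (−0.36) did not reach that size, and Fap and Dcn rest on 1 region each. Of the endoderm loci, Gata4 (0.24), Gata6 (−0.05), Lamb1 (−0.26) and Sparc (−0.41) did not reach it. In the floxed line the same 4 fibroblast loci were higher, but of the endoderm loci only Dab2, beside 9.9% higher and 15.5% lower of all loci. The reads summed over the fibroblast loci were 2330 formative and 2221 naive in DKO, 2373 and 2115 in dCD, 2606 and 2494 in floxed-line, and 2456 and 2323 in wild-type cells. Lum, also on the fibroblast list, had no region within 50 kb and was not counted. No marker gene with a region was at 0 in any group. Their part in the collagen differences was not tested.

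Between mutants and controls most collagen regions that differed were lower in the mutant, on the deposited scale. In the formative state 13 collagen regions were higher and 42 lower by at least 2-fold in DKO than in floxed-line cells, beside 6.47% and 16.7% of all regions. In naive cells the counts were 12 and 30 (4.36% and 15.9%). In dCD against wild-type cells they were 7 and 49 in the formative state (2.59% and 20.1%) and 7 and 33 in the naive state (1.55% and 13.9%). The shares of lower collagen regions were below those of all regions in each of these comparisons. Centring each group on its own median moved all differences up by 0.21 for the DKO in both states, and by 0.40 and 0.35 for the dCD in formative and naive cells. The splits then became 21 higher and 26 lower in formative DKO cells, 22 and 19 in naive DKO cells, 26 and 22 in formative dCD cells, and 30 and 16 in naive dCD cells. Of all regions, 11.2% were then higher and 11.8% lower in formative DKO, 8.06% and 10.6% in naive DKO, 10.8% and 9.69% in formative dCD, and 6.80% and 5.63% in naive dCD cells. The collagen medians were −0.18 and −0.05 for formative and naive DKO cells and −0.31 and −0.22 for formative and naive dCD cells, and with centring they turned positive, at 0.03, 0.16, 0.09 and 0.14, where those of all regions were 0.08, 0.03, 0.11 and 0.07.

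The fibrillar regions leaned lower in formative DKO cells with each of the scalings tried. Of 64 regions, 1 was at least 2-fold higher and 15 lower than in the floxed line, with a median of −0.42 against −0.13 for both the other collagens and all regions. With each group centred on its median the counts were 1 and 9 and the median −0.21. In formative dCD cells 0 were higher and 14 lower than in wild type (median −0.32), beside 2.59% and 20.1% of all regions. The fibrillar share lower, 21.9%, was thus near that of all regions. After centring the counts were 5 and 5, beside 10.8% higher and 9.69% lower of all regions, and the median was 0.08. In naive DKO cells 4 fibrillar regions were higher and 5 lower (4.36% and 15.9% of all regions), and in naive dCD cells 1 and 6 (1.55% and 13.9%). The fibrillar share lower in formative DKO cells, 23.4%, thus stood above the 16.7% of all regions, while the naive share did not. With centring these formative shares were 14.1% of fibrillar and 11.8% of all regions.

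The DKO and dCD comparisons use different libraries on both sides. In the formative state 26 collagen regions were at least 2-fold lower in both, which is 61.9% of the 42 lower in DKO and 53.1% of the 49 lower in dCD cells. Over all regions these shares were 68.8% and 57.4%. The 2 sets of differences correlated at r = 0.75 over the 281 regions and 0.73 over all. In the naive state 16 were lower in both (53.3% of 30 and 48.5% of 33), with r = 0.69. Over all regions the naive shares were 49.4% and 56.4% and r was 0.63, so the collagen overlap was near that of all regions in both states.

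By gene, 0 collagen loci were higher and 6 lower by at least 1.5-fold in formative DKO than in floxed-line cells, beside 13.6% and 14.2% of all loci. The 6 were Col10a1, the hypertrophic cartilage collagen, with Col1a2, Col2a1, Col3a1, Col4a6 and Col6a5. With centred groups 4 were higher, at Col17a1, Col4a4, Col6a3 and Col7a1, and only Col1a2, Col3a1 and Col4a6 of the 6 were still lower. Of all loci, 23.8% were then higher and 8.75% lower, so the collagen share of higher loci lay below that of all loci. In formative dCD against wild-type cells 0 were higher and 9 lower (7.97% and 17.0%), and with centred groups 4 were higher and 3 lower (26.4% and 6.74% of all loci). Col3a1, Col4a6 and Col6a5 were among the lower loci with each of the scalings tried, and Col22a1 joined them when each chromosome was centred. In naive cells 5 loci were higher and 6 lower in the DKO (7.58% and 16.3%) and 2 higher and 5 lower in the dCD (4.68% and 15.2%). Centring changed these to 6 and 3 in the DKO (15.9% and 8.55% of all loci) and to 10 and 1 in the dCD (16.1% and 4.26%), where Col3a1 was the 1 still lower. At Col6a5, a type VI chain, all 10 regions were lower in formative dCD than in wild-type cells and 9 of 10 in formative DKO than in floxed-line cells. Its region 48.2 kb past the start held 9.50 formative and 17.8 naive reads in DKO, 8.79 and 9.06 in dCD, 39.2 and 29.2 in floxed-line, and 44.5 and 30.0 in wild-type cells. It was among the regions with the largest differences in both mutants, and it did not gain in wild type (FDR 0.253 in the authors' deposited table).

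The control lines differed less at these genes. Of the 281 regions 1 was at least 2-fold higher and 6 lower in formative floxed-line than in wild-type cells (0.526% and 3.83% of all), and 2 and 7 in the naive state (0.864% and 4.38%). Col4a1, with its regions on the Col4a2 side of the start, was the single locus at least 1.5-fold lower in the naive floxed line (−0.62). It lies on chromosome 8, whose median in that comparison was −0.45. No locus was higher in either state, and none lower in the formative state. The locus backgrounds were 0.692% higher and 5.28% lower for formative, and 1.66% and 5.35% for naive cells.

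Regions centred at start sites behaved unlike those centred farther out. Of 28 collagen regions centred within 1 kb of a start site, 21 had more H3K4me1 in formative DKO than in floxed-line cells and 24 in naive cells. In dCD against wild-type cells 24 were higher in each state. These shares compare with 76.8% and 76.6% of all start-site regions in formative and naive DKO cells, and with 77.5% and 77.4% in dCD cells. The medians were 0.38 and 0.46 for formative and naive DKO cells and 0.38 and 0.47 for dCD cells, and centring raised them to 0.59, 0.67, 0.78 and 0.83. Some of the 253 collagen regions centred farther out still cover a start, as at Col1a2, Col13a1 and Col8a2. The 253 regions had medians of −0.28 and −0.13 in DKO and −0.41 and −0.31 in dCD cells. With centring these lay near 0, at −0.07 and 0.08 in DKO and −0.01 and 0.05 in dCD cells, so that the naive ones changed sign.

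At the start of Col19a1 formative DKO cells had 120 reads against 56.9 in the floxed line. At Col27a1 formative DKO cells had 161 reads against 105 in the floxed line, and dCD cells 162 against 96.1 in wild type. At Col12a1, a FACIT of tendon and dense connective tissue, formative DKO cells had 276 reads against 191, and dCD cells 307 against 166. Col3a1, with 10.7 in DKO against 32.3 in floxed-line cells and 16.2 in dCD against 33.1 in wild-type cells, was at least 2-fold lower in both mutants. It is the gene whose upstream window above lacks a CpG, where those of Col19a1 and Col27a1 hold 10 and 15. At 2-fold, 3 start-site regions were higher and 1 lower in formative DKO cells (7.34% and 3.25% of all start-site regions), and 2 higher and 2 lower in formative dCD cells (8.94% and 3.64%).

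**Figure D3:**
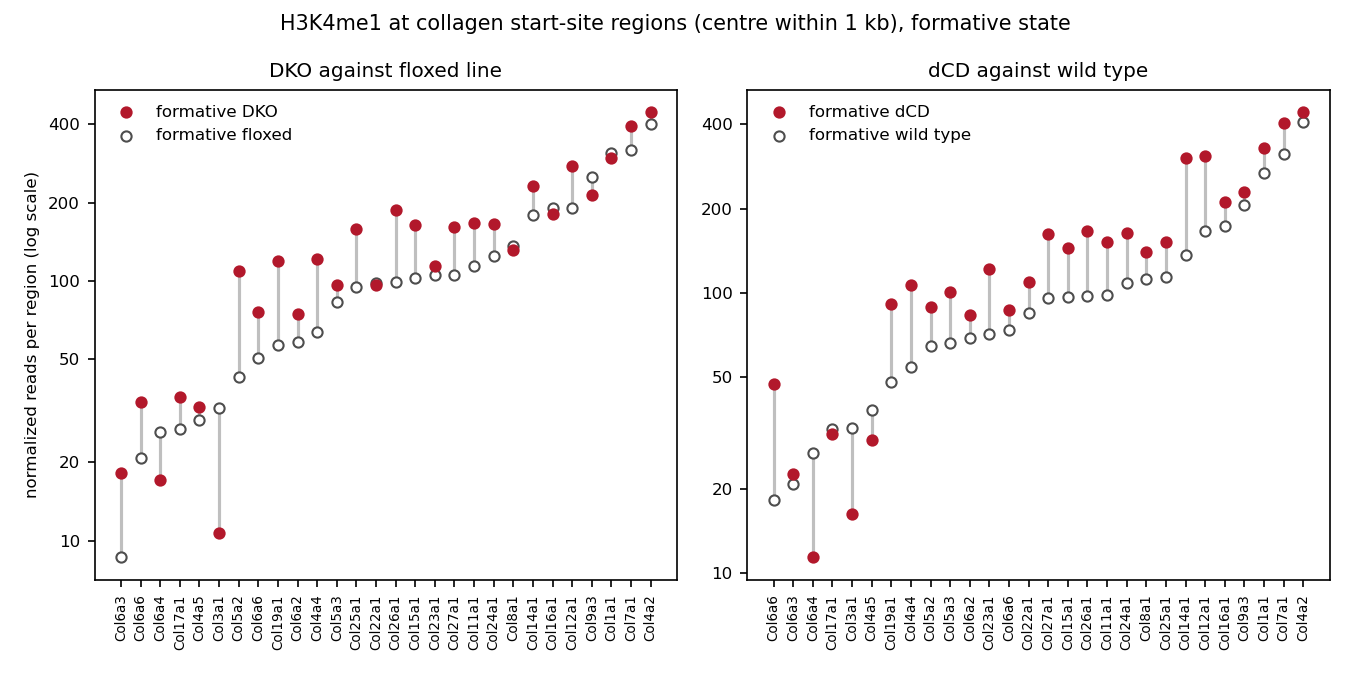
Normalized H3K4me1 reads (log axis) of the 28 collagen start-site regions in formative cells, with DKO beside the floxed line on the left, dCD beside wild type on the right, and a line joining each region. The mutant point is the higher one for 21 regions on the left and 24 on the right, and Col3a1 is lower in the mutant in both.

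CpG density went with the mutant differences across collagen regions, much as it did over all regions. Of the 84 regions with fewer than 1 CpG per 100 bp, 30 (35.7%) were at least 2-fold lower and 1 higher in formative DKO than in floxed-line cells, with a median of −0.72, near the 33.4% lower and the median of −0.63 over all regions of that density. Of 155 regions with 1 to 2 CpG per 100 bp 12 (7.74%) were lower and 6 higher (median −0.09), against 8.12% lower of all such regions. Of 38 regions with 2 to 4 CpG per 100 bp 0 were lower and 5 higher (median 0.39), against 0.371% lower and 17.7% higher of all such regions. In formative dCD against wild-type cells the medians of the same bins were −0.78, −0.29 and 0.32, and over all regions −0.74, −0.21 and 0.41. The 4 regions of higher density had a median of 0.76 in each comparison. Centring adds the same amount to every bin and leaves this order as it is. Pearson's r of CpG density with the formative difference was 0.55 for DKO and 0.58 for dCD over the 281 regions. Over the 253 centred more than 1 kb from a start site, some of which still cover a start, it was 0.54 and 0.53. Over all regions of the table r was 0.46 and 0.49. With the wild-type transition r was −0.10. The regions share their libraries and their base composition, so these values are descriptions.

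**Figure D4:**
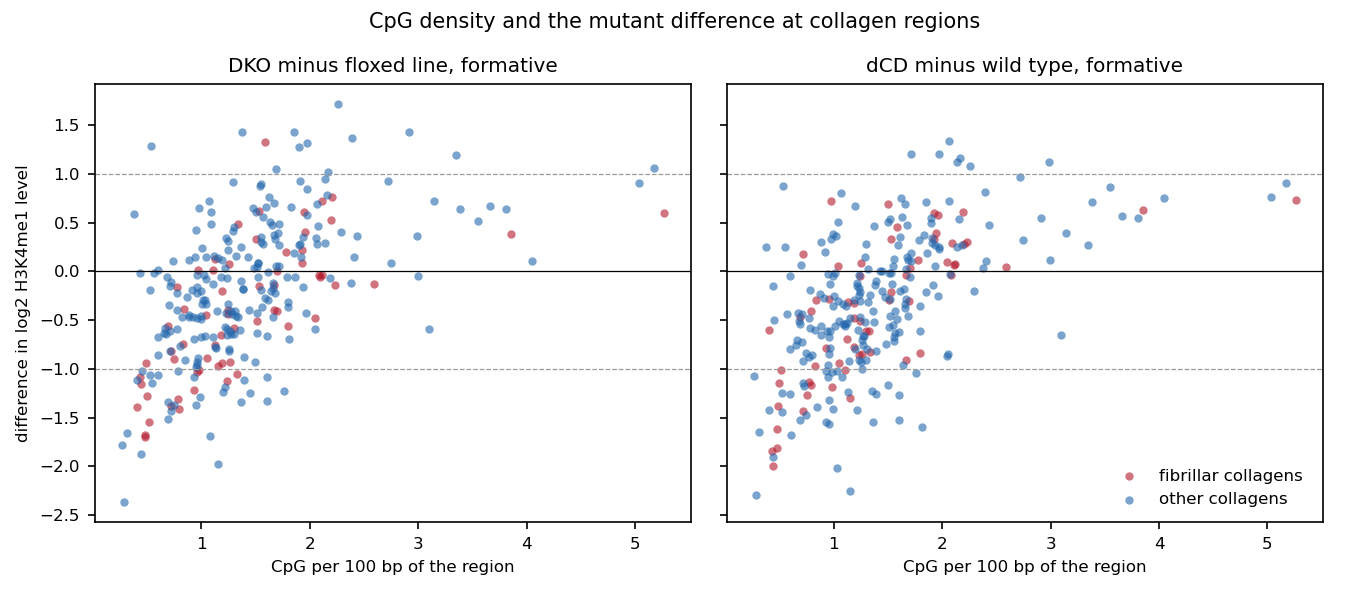
Difference in log2 H3K4me1 level in formative cells against CpG per 100 bp for the 281 collagen regions, DKO minus the floxed line in one panel and dCD minus wild type in the other, with dashed lines at a 2-fold difference. No region above 2 CpG per 100 bp falls below the lower dashed line, and most points below it have under 1 CpG per 100 bp.

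Promoter windows of collagen genes, from 250 bases before to 50 after the start, were found in RefSeq for 34 of the 42 genes, 37 windows in all. They held a median of 12 CpG, against 7 in all 32851 windows of that length. The GC box GGGCGG, searched on both strands, stood in 62.2% of them, against 35.7% of all windows. The CCAAT box stood in 35.1% and 37.4%, the TATA box TATAAA in 13.5% and 13.6%. The core TAATCC, known as a recognition motif of OTX2, a formative-state factor, stood in 0% of collagen windows and 7.06% of all. It stood in the central 300 bases of 8.19% of the collagen regions, against 11.0% of all regions, and in 1 of the 30 gained ones. A match is a run of letters only, and its absence says nothing about a factor.

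The table carries the authors' log2 folds of RNA, measured on samples outside this series, for 24 of the 42 genes. In wild type RNA was at least 2-fold higher in formative cells for 12 of them and lower for 1, beside 19.1% and 9.76% of 10849 genes. By these folds in the authors' deposited table the fibrillar genes Col1a2 (2.58), Col27a1 (1.97), Col2a1 (1.76) and Col1a1 (1.30) were higher. So were Col4a5 (2.59), Col8a2 (1.93), Col18a1 (1.89), Col6a4 (1.72), Col9a3 (1.45), Col6a5 (1.42), Col6a2 (1.31) and Col4a1 (1.06), while Col13a1 (−1.32) was lower. In DKO cells 11 were higher and 0 lower (19.9% and 5.26%), with Col5a2 at 4.07, Col1a2 at 3.20, Col8a1 at 2.46, Col4a5 at 2.45, Col6a2 at 2.29 and Col1a1 at 1.90 as the 6 highest in the authors' deposited table. In DKO cells 11 of the 24 collagens with an RNA fold thus had at least 2-fold more RNA in the formative state. In H3K4me1, 1 of the 42 loci was at least 1.5-fold higher, Col4a6, which has no RNA fold, beside 1.57% of all loci. The RNA and H3K4me1 counts rest on different samples, fold limits and sets of genes.

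At Col1a2 the RNA fold of formative over naive cells in the authors' deposited table was 3.20 in DKO and 2.58 in wild-type cells. Its locus mean of H3K4me1 was −0.19 in DKO and 1.25 in wild-type cells. Col5a2 had RNA folds of 4.07 in DKO and −0.19 in wild-type cells in the authors' deposited table, beside locus means of −0.05 and 0.74. Set against wild type, formative DKO cells had at least 2-fold more RNA for 5 collagens and less for 5 (6.97% and 5.65%). Higher in the authors' deposited table were Col8a1 (5.32), Col5a2 (2.87), Col1a2 (2.01), Col4a2 (1.85) and Col6a2 (1.22). Lower were Col6a5 (−2.32), Col2a1 (−1.68), Col18a1 (−1.60), Col6a4 (−1.39) and Col27a1 (−1.05). In naive cells 4 were higher and 5 lower (9.58% and 11.6%). Over the 24 genes the locus mean and the RNA fold correlated at r = 0.05 in DKO and 0.26 in wild type. Both were above 0 for 13 genes in DKO and for 16 in wild type.

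**Figure D5:**
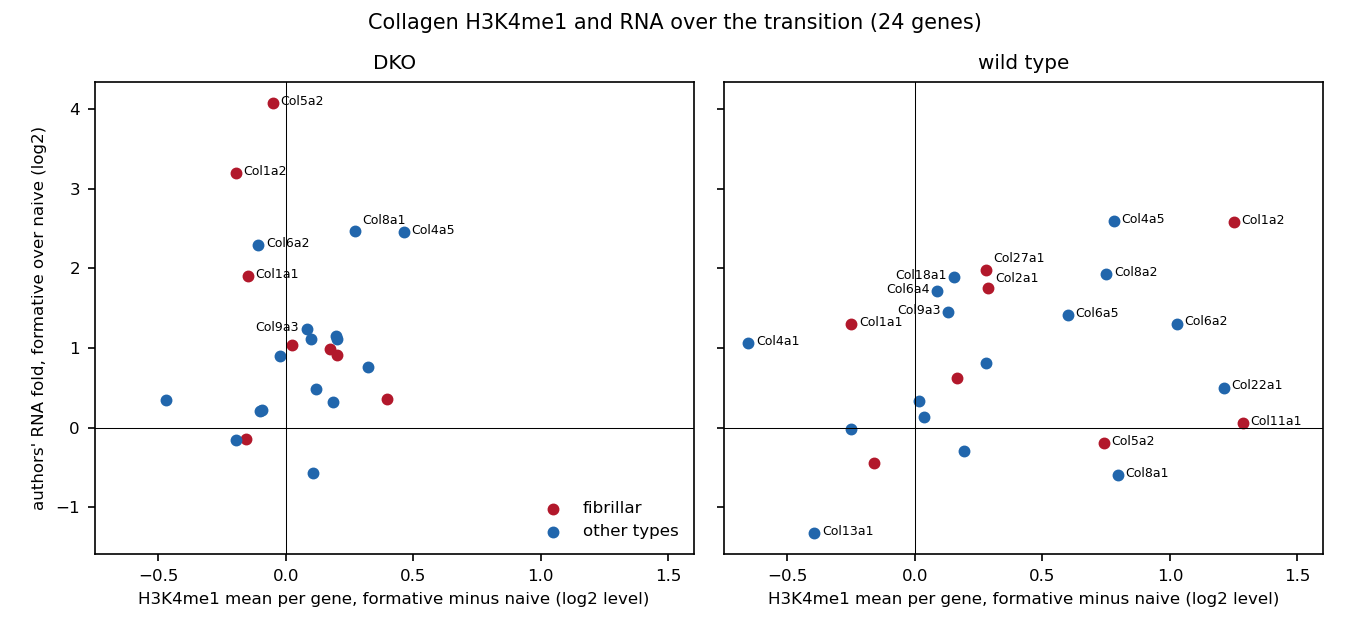
The authors' log2 RNA fold against the mean H3K4me1 difference of the locus, both formative against naive, for 24 collagen genes in DKO (left) and wild-type cells (right). In DKO cells the points stand in a narrow column near an H3K4me1 difference of 0 while RNA reaches 4.07 at Col5a2, and in wild type Col1a2 is high on both axes (1.25 and 2.58).

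The authors' H3K27ac folds, also from samples outside this series, concern a mark of active enhancers and promoters. Of 281 collagen regions, 114 in the authors' deposited table were higher and 44 lower by at least 2-fold in formative than in naive wild-type cells, beside 33.0% and 18.8% of all regions. In DKO cells 59 were higher and 54 lower (21.7% and 18.0%). The fibrillar regions were 28 higher and 3 lower in wild type, and 9 and 8 in DKO cells. In formative DKO against wild-type cells 36 collagen regions were higher and 87 lower (18.9% and 27.8%), 5 and 19 of them fibrillar. In naive cells 73 were higher and 69 lower (24.7% and 22.8%).

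The genes whose products modify, process, bind or cleave collagen were read in the same way. In the wild-type transition, where 12.8% of all loci were at least 1.5-fold higher and 15.1% lower, 5 of 28 loci of modifying and processing enzymes were higher and 2 lower. Higher were P3h2 (1.45), Plod2 (1.14, 1 region) and Ppib (0.65), which hydroxylate or fold procollagen, and Adamts3 (0.95) and Tll1 (0.88), which trim it. In the floxed line P3h2 (1.23), Plod2 (0.72) and Tll1 (0.64) were past that size as well, and Ppib (0.54) and Adamts3 (0.39) were not. In formative DKO against floxed-line cells 1 of the 28 was higher and 5 lower, beside 13.6% and 14.2% of all loci. Among the cross-linking lysyl oxidases, Loxl2 (−1.37) and Loxl3 (−1.35), each from 1 region, and Loxl1 (−1.18, 8 regions) were lower, while Lox stood at 0.14 and Loxl4 at 0.12. Of 9 collagen receptor loci 1 was higher and 1 lower in formative wild-type cells, Itga1 (0.98) and Ddr2 (−0.84), and in the floxed line only Itga1 (0.84) was past that size. Of 15 loci of other basement membrane components 0 were higher and 2 lower, Nid1 (−1.22) and Lama1 (−0.95), of which the floxed line had Nid1 (−1.15). Of 5 collagen-cleaving protease loci 3 were higher and 0 lower in wild type, Mmp13 (1.28), Mmp8 (1.07) and Mmp2 (0.76). The controls differed here: in the floxed line only Mmp8 (1.27) was higher, and Mmp13, from 2 regions, stood at −0.09.

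The distance limit cut through a continuum of regions. Just inside 50 kb lay regions of Col1a2 at 48.6 kb, Col13a1 at 48.4 kb and Col6a5 at 48.2 kb, with differences of 0.83, 0.33 and 0.56 in the wild-type transition. Just outside lay regions of Col13a1 at 50.1 kb, Col4a1 at 50.2 kb and Col6a6 at 50.4 kb, with −0.26, −0.50 and −0.57. Without a distance limit 401 regions carry a collagen gene's name. Col4a3bp, a gene of another function whose name begins like a collagen's, was left out with its 8 regions.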

How the data were processed

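The samples are 21 CUT&RUN libraries of mouse embryonic stem cells. The 16 H3K4me1 libraries were used, 2 for each of 8 groups, which were grown and prepared apart from each other per the labels. MLL4 and IgG libraries were not analysed here. Trim Galore, Bowtie2, SEACR, deepTools and DiffBind are named with mm10 in the submitters' processing notes, which as given here hold no versions and no roles. Label fields disagree on the antibody's catalogue number, 1 of which is known as an H3K27ac antibody's, so the mark is called as labelled.

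The authors deposited a table of 186826 regions, 2 without levels, with log2 levels and the libraries of a group pooled in 1 column, per the file headers. Columns under CKO were read as those of the floxed line. The same deposited table holds the authors' log2 fold, p-value and FDR for formative over naive wild-type cells, and their log2 folds of H3K27ac and RNA, from samples outside this series. Another 14 columns of levels, of other measures, were left out. A level equals log2 of a sum, 1 plus normalized reads scaled by the inverse of the squared width (offset 22.2), from which reads were computed back. Levels of regions of different width cannot be compared. Collagen regions were 582 to 22530 bp wide.

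A limma fit was foreseen for columns per library, which the table does not hold, so sizes are given: regions at 2-fold and gene loci, the mean over regions within 50 kb, at 1.5-fold, in 10 comparisons. The members and gene lists were chosen with earlier results of these data known. Every fibrillar gene is named. Of the other collagens, the 3 highest and 3 lowest loci per comparison with at least 2 regions could be named. So could the 5 largest gains and the 5 largest losses by fold among regions past the FDR. The 3 highest and 3 lowest regions per mutant comparison with at least 16 reads could be named as well. Genes beyond these were named after their values were seen. CpG density, repeats and sequences come from RefSeq GRCm38.p6. The steps were tested on simulated data. Python 3.11.15, pandas 2.3.3, NumPy 2.4.6, SciPy 1.17.1 and pysam 0.24.0 were used. Alternatives were other scalings and distance limits, an FDR of 0.01, regions of at least 32 reads, and the log2 of reads plus 1, the last chosen after seeing the data.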

Additional observations from a re-analysis of the deposited data

How the results depend on the processing

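Of 170 recomputed shares of collagen regions past a threshold, 121 stayed within 1.5 times of the share first found and 49 moved further. The first shares, higher and lower, were 10.7% and 6.41% by FDR in wild type, 11.0% and 9.25% in the wild-type, 0.712% and 1.78% in the DKO and 1.78% and 0.712% in the dCD transition. They were 4.63% and 14.9% for formative and 4.27% and 10.7% for naive DKO, 2.49% and 17.4% for formative and 2.49% and 11.7% for naive dCD, and 0.356% and 2.14% for formative and 0.712% and 2.49% for naive floxed-line cells, each against its control. An FDR of 0.01 left 5.34% gained and 3.20% lost. Within 10 kb, 2.97% lost the mark by FDR, 4.95% were lower in the wild-type and 0% in the dCD transition, 6.93% were lower in naive DKO, 0.990% higher in naive dCD and 3.96% higher in formative dCD cells, and the floxed line had 0% higher and 0.990% lower in both states. At any distance, 1.25% were higher in the DKO transition, 6.73% higher in naive DKO, 1.25% higher and 4.74% lower in the naive floxed line, and 4.99% lower in the formative one. Without regions under 32 reads, 0% were higher and 0.606% lower in the DKO transition, 0.633% higher in that of dCD, 6.31% in that of wild type, 2.27% higher in naive DKO, 1.63% in naive dCD, 1.12% in the naive and 0% in the formative floxed line, where 1.06% were lower. Centring groups on their medians gave 7.47% higher and 9.25% lower in formative and 7.83% and 6.76% in naive DKO, 9.25% and 7.83% in formative and 10.7% and 5.69% in naive dCD cells, and 1.42% lower in the naive floxed line. Of all regions 2.87% were then lower in the naive floxed line, and the mutant shares of all regions are given in the Results. Quantile scaling gave 7.12% and 8.19%, 8.19% and 6.41%, 7.83% and 8.90%, and 9.96% and 7.12% in that order, and 1.07% lower in the formative floxed line. Of all regions it gave 9.49% and 11.5%, 8.17% and 10.4%, 7.84% and 10.2%, and 5.94% and 7.52%, and 2.59% lower in the formative floxed line. Centring each chromosome gave 5.34% and 8.90% in formative and 7.83% and 6.76% in naive dCD cells and 1.42% lower in the naive floxed line. Of all regions it gave 7.67% and 11.9%, 5.15% and 6.63%, and 3.71% lower in the same order. For the other FDR, the distance limits and the read limit no shares of all regions are given here. A change under those settings thus cannot be told apart from a change over all regions. The causes were not tested. Of 934 recomputed locus values 877 were unmoved, 56 moved, and 1 reversed: Col5a2 in formative dCD minus wild-type cells, at 0.46 within 10 kb against −0.67. No paired analysis was possible because the table holds 1 pooled column per group. Depth limits single regions, whose values in a group went down to 1.95 normalized reads.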
